A study of Mus musculus with 6 samples.

Results

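The 43 genes described here encode the actin cytoskeleton and the machinery that natural killer (NK) cells use to build the immune synapse. They were chosen by name and known role from the 14490 genes listed in an mRNA-seq table of splenic NK cells, and all 43 were measured. The choice used no rule on measured values, but earlier results of these data were known when it was made. WT samples came from Mettl3fl/fl mice on the C57BL/6 background and cKO samples from Mettl3fl/fl mice that also carried Cre at the Ncr1 locus, with 3 samples in each group. Both groups therefore carried the floxed Mettl3 alleles, whereas Cre was present in cKO only, so loss of Mettl3 and the Cre insertion at Ncr1 cannot be told apart in this comparison. Mettl3 encodes the catalytic subunit of the enzyme that writes N6-methyladenosine (m6A) on mRNA, and Ncr1 encodes the NK cell receptor NKp46, whose promoter is active in NK cells and in some other innate lymphoid cells. Ages were not used here, and no source used here states that the samples of a group came from separate mice, so p-values measure only the spread between these samples.

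An NK cell kills by attaching to a target, polarizing toward it and releasing lytic granules at the contact. Integrins bound to talin and kindlin hold the contact, small GTPases such as Rac and Cdc42 are switched on there by exchange factors, and WASP and WAVE proteins downstream of these GTPases activate the Arp2/3 complex, which branches actin filaments. Formins and Ena/VASP proteins extend unbranched filaments, cofilin and coronin turn filaments over, profilin and thymosins hold actin monomers, myosins pull, and ezrin and moesin tether the cortex to the membrane. The question of the comparison was whether transcripts of this machinery differed between WT and Mettl3-deficient NK cells.

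Values are normalized counts, the number of reads on a gene divided by a size factor of the sample, as the authors deposited them. Per-sample values are given in the order of samples 1, 2 and 3. The listed genes took 55965515 to 67732352 reads in WT samples and 62995813 to 71464042 in cKO samples. The check gene Mettl3 had 1303, 1258 and 1192 in WT and 297, 299 and 405 in cKO, and the residual reads in cKO were counted over the whole gene. All 10 NK cell markers were detected, with a summed level between 686650.0 and 716035 in WT and between 620310.8 and 655851 in cKO, and 7 of the 10 fell and 1 rose by the test used below. Ncr1 was among those that fell, from 22707, 22328 and 22147 in WT to 16938, 17138 and 16678 in cKO. Of 10 B cell markers 8 rose, with summed levels of 1444 to 1455 in WT and 1987 to 2067 in cKO, while 3 of 9 measured T cell markers fell, from summed levels of 13357 to 14592 to levels of 9132 to 9695. The part of these markers in the results on actin genes was not tested. In sorted bulk RNA, fewer cells of a type and less RNA per cell cannot be told apart.

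In cKO NK cells most of the actin machinery that changed was lower, and by small amounts. Of the 43 genes, 22 fell, 5 rose and 16 did not pass the threshold, which was an adjusted p below 0.05 in limma on log2 normalized counts, adjusted by the Benjamini-Hochberg method across the whole table. The background was high. Over all genes 36.6% were called in either direction, 17.8% higher and 18.8% lower, against 27 of 43 here. The genes of the actin machinery are abundantly expressed, and among genes with a mean of at least 1000 normalized counts, a level all 43 reached, 55.2% were called and 30.9% were lower. The median log2 fold change was -0.095 over the 43 genes and 0.0014 over all genes. When samples were scaled to equal totals instead of by size factors, 17 genes fell and 8 rose, where 13.9% of all genes were lower and 24.1% higher. The median log2 fold change with equal totals was -0.045 over the 43 genes and 0.051 over all genes, so both medians moved up.

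**Figure D1:**
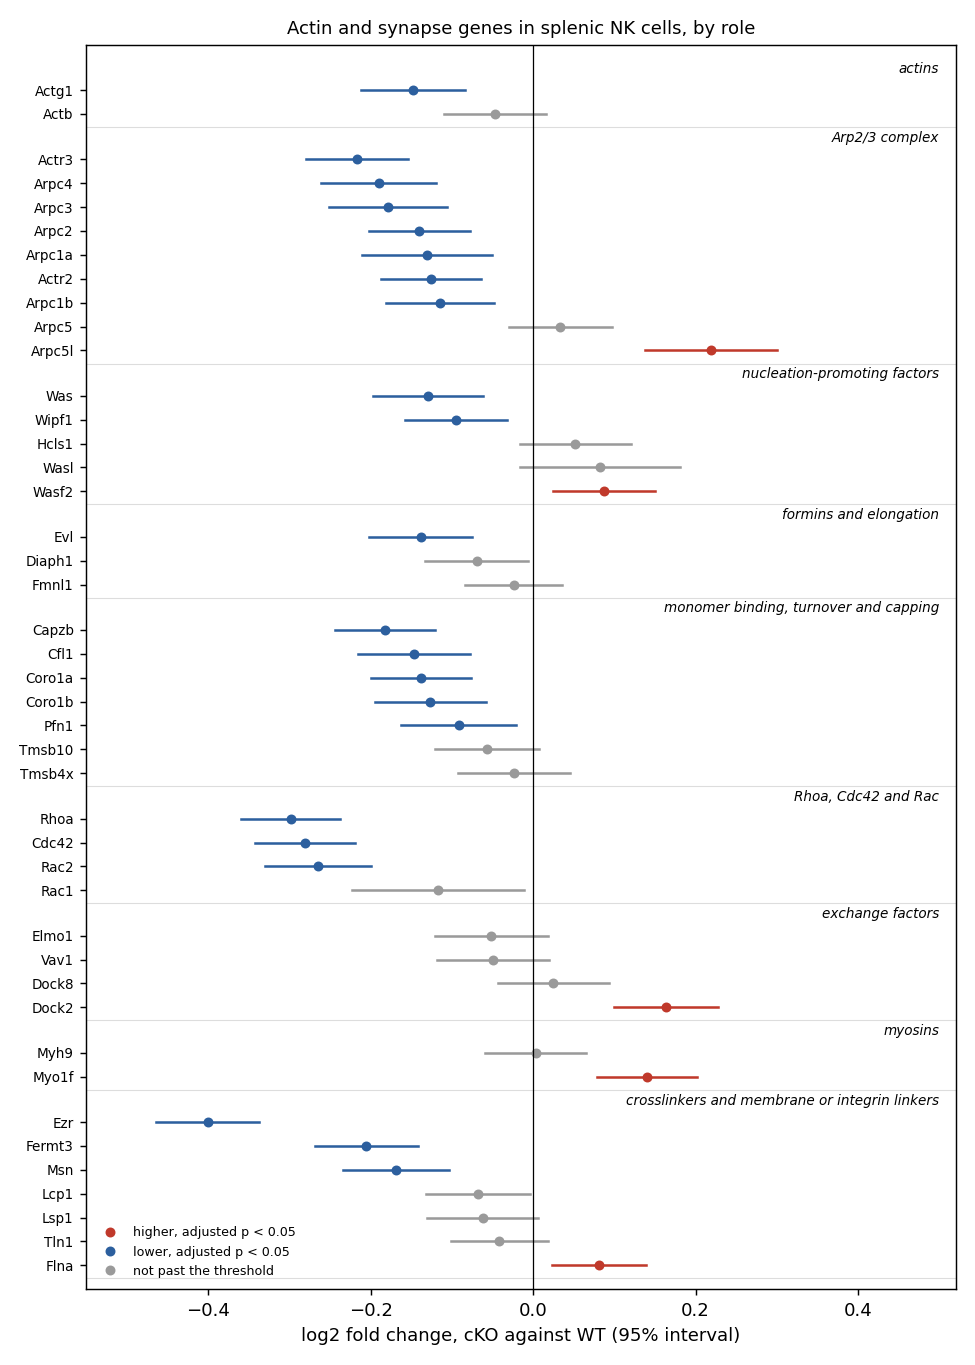
Log2 fold change of each of the 43 genes in cKO against WT with its 95% interval from limma (horizontal axis), arranged by role, with genes past an adjusted p of 0.05 in blue where lower and in red where higher. Ezr, Rhoa, Cdc42 and Rac2 lie farthest to the left, and Arpc5l lies farthest to the right.

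No gene of the 43 changed by 1 or more on the log2 scale with an unadjusted p below 0.05, a rule met by 1.75% of all genes. Only 4 of the 27 called genes changed at least 1.2-fold, namely Ezr, Rhoa, Cdc42 and Rac2, all lower, where 18.0% of all genes passed the threshold at that size. The confidence interval of every one of the 43 genes lay within 0.5 log2 units of no change. Summed over the 43 genes, normalized counts were 2000682, 1980282 and 1948831 in WT and 1854510.5, 1900476 and 1820928 in cKO, and the groups did not overlap. The total over all listed genes was also lower in cKO without overlap. It was 66657947, 66581707 and 66099619 in WT and 64049840, 64941538 and 63610357.5 in cKO. The 43 genes took 3.001%, 2.974% and 2.948% of that total in WT and 2.895%, 2.926% and 2.863% in cKO. Part of their lower sum was therefore shared with the whole table. In 28 of the 43 genes the values of the genotypes did not overlap, with cKO below WT in 23 and above it in 5. Over all genes that share was 45.7%.

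RefSeq promoter sequences, 250 bases before to 50 bases after the annotated start on GRCm38.p6, were matched for 36 of the 43 genes. The genes without an entry were Actb, Arpc5l, Coro1b, Diaph1, Rac1, Rac2 and Lsp1. The Arp2/3 subunits were picked for display because most of these genes fell, so the choice used the measured changes. GGAAGT, the core of many ETS factor sites, was 1 of 8 motifs searched, and 7 of the 8 subunits with an entry held it. Each line gives the stretch around this motif, with at most 30 bases after the start. The motif is in capitals (ACTTCC where it lies on the opposite strand).
Actr3 (chr1:125435698-125435770, minus strand): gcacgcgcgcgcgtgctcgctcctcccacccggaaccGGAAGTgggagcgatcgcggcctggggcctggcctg
Arpc4 (chr6:113378066-113378142, plus strand): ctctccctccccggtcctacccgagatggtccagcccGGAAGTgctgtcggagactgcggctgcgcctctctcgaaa
Arpc3 (chr5:122391832-122391907, plus strand): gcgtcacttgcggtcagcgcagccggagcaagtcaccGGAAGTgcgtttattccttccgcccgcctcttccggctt
Arpc2 (chr1:74236466-74236545, plus strand): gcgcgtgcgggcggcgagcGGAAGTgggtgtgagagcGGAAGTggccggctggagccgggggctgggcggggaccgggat
Arpc1a (chr5:145083806-145083885, plus strand): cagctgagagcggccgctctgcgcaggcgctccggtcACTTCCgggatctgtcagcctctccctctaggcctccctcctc
Actr2 (chr11:20112922-20112980, minus strand): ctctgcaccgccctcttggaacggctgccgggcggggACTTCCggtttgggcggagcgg
Arpc1b (chr5:145114223-145114285, plus strand): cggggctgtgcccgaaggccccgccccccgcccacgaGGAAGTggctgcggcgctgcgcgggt
The motif lay within 30 bases of the start in all 7, beginning 6 bases upstream in Actr3, 10 in Arpc4, 9 in Arpc3, 14 in Arpc2 and 26 in Arpc1a, and just downstream of the start in Actr2 and Arpc1b.

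The remaining subunit with an entry, Arpc5, held no GGAAGT on either strand in its window, shown here up to 30 bases after the start.
Arpc5 (chr1:152766292-152766571, plus strand): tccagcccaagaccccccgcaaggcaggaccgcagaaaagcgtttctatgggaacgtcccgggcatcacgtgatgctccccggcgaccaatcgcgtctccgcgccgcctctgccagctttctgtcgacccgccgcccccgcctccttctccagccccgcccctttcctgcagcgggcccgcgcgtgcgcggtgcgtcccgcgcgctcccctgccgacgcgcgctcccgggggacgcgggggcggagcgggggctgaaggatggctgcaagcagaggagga
Of the 36 genes with an entry 22 held GGAAGT, against 23.8% of all 32851 promoters in the table and 28.9% of the promoters of genes listed in the mRNA-seq table. The motif was not limited to genes that fell, since Dock2, Myo1f and Wasf2, which rose, also held it. So did Dock8, Elmo1, Fmnl1, Hcls1, Lcp1, Tln1 and Vav1, which did not pass the threshold for a change. Ezr, Rhoa, Actg1, Msn, Capzb, Coro1a, Evl and Fermt3 fell and had an entry but did not hold it. Whether the motif went with the change was not tested. In all, 8 motifs were searched on both strands. A gene was counted if any of its promoter entries held the motif, and the 36 genes had 45 entries. The shares beside the counts are of single entries, so a gene with several entries could be counted more easily, and the 2 measures are not alike. CCGGAA, which overlaps GGAAGT where the letters run together, was found in 14 of the 36 genes, against 14.9% of all promoters and 27.3% of those of listed genes. GGGCGG was found in 29, against 35.7% and 60.8%, and CCAAT in 9, against 37.4% and 37.7%. TATAAA was found in 5 (13.6% and 7.11%), TGTGGT in 6 (16.8% and 13.6%) and TGACGTCA in 1 (1.79% and 3.13%). The CArG box, the site of serum response factor and a known element of actin promoters, was found in Actg1 and Arpc4 (1.63% of all promoters and 1.23% of those of listed genes). A match to these letters is a description of the window and not evidence of binding.

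The Arp2/3 complex, the nucleator of branched actin, was lower in most of its subunits. Of the 9 genes for its subunits, 7 fell, 1 rose and 1 did not pass the threshold, with a median log2 fold change of -0.13. Over all genes 18.8% were lower, and 30.9% among genes with a mean of at least 1000 normalized counts. With equal totals 5 subunits were lower and 2 higher, where 13.9% of all genes were lower and 24.1% higher. The subunits were not tested against these shares. The actin-related protein Actr3 (chr1:125392905-125435727 of GRCm38) had 46502, 45840.0 and 43742 normalized counts in WT and 38847, 39656 and 38556 in cKO. It fell by 0.22 on the log2 scale (SE 0.030, adjusted p = 2.36e-06), the largest fall of the complex. Its partner Actr2, with which it forms the start of the new branch, had 24886, 25087 and 24483 in WT and 22606, 23235 and 22402 in cKO and fell by 0.13 (SE 0.030, adjusted p = 0.00146). For both genes the cKO samples all lay under the WT samples.

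Arpc2, Arpc4 and Arpc3 moved the same way. Arpc2, which with Arpc4 forms the core of the complex, had 33483, 33489 and 32978 normalized counts in WT and 29854, 31272 and 29605 in cKO, a fall of 0.14 (adjusted p = 0.000554). Arpc4 had 12001, 11724 and 11255 in WT and 10428, 10311 and 9921 in cKO and fell by 0.19 (adjusted p = 7.63e-05). About 12.2% of its exon length is shared with Ttll3 on the same strand. Arpc3 had 20072, 21047 and 20322 in WT and 17962, 19156 and 17197 in cKO and fell by 0.18 (adjusted p = 0.000213). None of these 3 genes overlapped between the genotypes.

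The complex contains alternative subunits encoded by paralogous genes, Arpc1a or Arpc1b and Arpc5 or Arpc5l, and complexes built from different isoforms are known to differ in activity. Arpc1b, the main isoform of blood cells, had 40546, 43660.5 and 40892 normalized counts in WT and 38745, 39411 and 37313 in cKO, and it fell by 0.12 (SE 0.032, adjusted p = 0.00616). About 18.2% of its exon length is shared with Pdap1 on the opposite strand. Arpc1a had 4492, 4598 and 4565 in WT and 4191, 4243 and 4039 in cKO and fell by 0.13 (SE 0.039, adjusted p = 0.00942). Both calls were lost with equal totals, and each also without 1 library, Arpc1b without WT replicate 2 and Arpc1a without cKO replicate 3. The ratio of Arpc1a to Arpc1b counts was between 0.105 and 0.112 in WT and close to 0.108 in all cKO samples, with overlap.

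The Arpc5 pair behaved otherwise. Arpc5l had 3941, 4103 and 3948 normalized counts in WT and 4666, 4771 and 4522 in cKO, and it rose by 0.22 on the log2 scale (SE 0.040, adjusted p = 8.02e-05), the largest rise of the 43 genes. Arpc5 had 21315, 21168 and 20552 in WT and 21650.3, 21989 and 20888 in cKO, with a log2 difference of 0.034 (95% interval -0.030 to 0.097, adjusted p = 0.435), and it passed the threshold as higher with equal totals (adjusted p = 0.0222). The ratio of Arpc5 to Arpc5l was 5.41, 5.16 and 5.21 in WT and 4.64, 4.61 and 4.62 in cKO, so Arpc5l took a larger part of the pair in every cKO sample. The log2 ratio differed by -0.19 between the genotypes (exact permutation test with 20 ways to assign the samples, two-sided p = 0.1, the smallest this design allows, and 0.2 after Benjamini-Hochberg adjustment over 8 pairs).

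**Figure D2:**
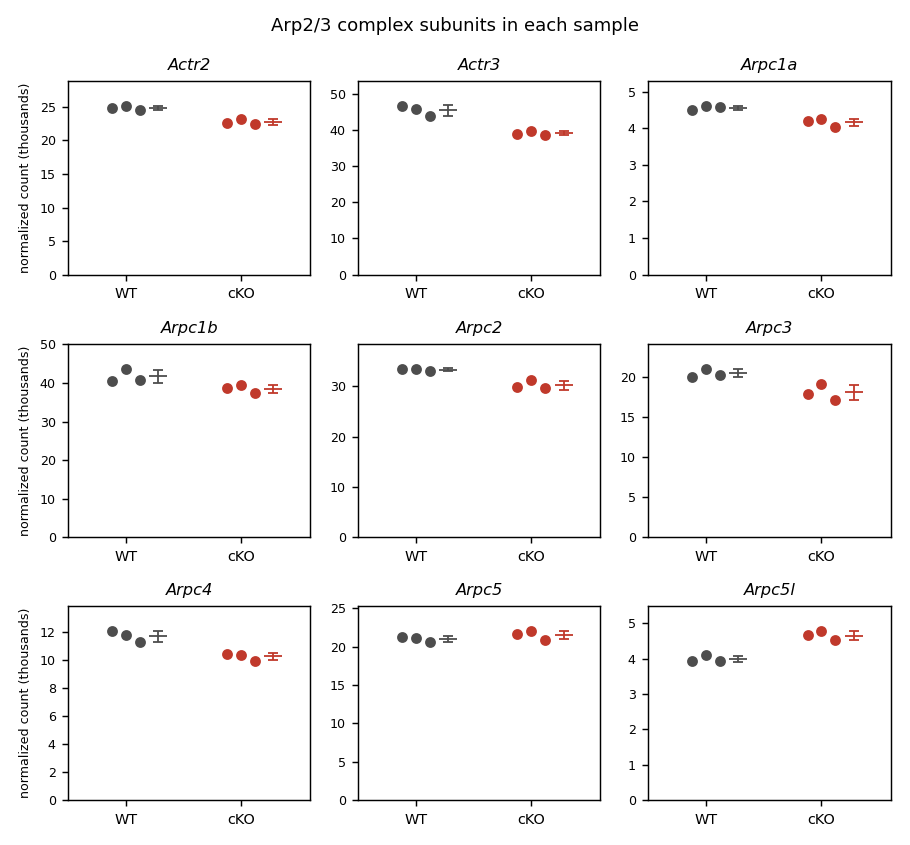
Normalized counts in units of 1000 (vertical axes, starting at 0) of the 9 Arp2/3 subunit genes in each WT sample (grey) and each cKO sample (red), with the mean and SD of 3 samples beside them. The cKO points lie below the WT points in 7 panels, overlap them in Arpc5 and lie above them in Arpc5l.

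Of the 2 actin genes, 1 fell and the other did not pass the threshold. Actg1, cytoplasmic gamma actin, had 142073, 142223 and 135658 normalized counts in WT and 123154, 130453 and 125290.5 in cKO and fell by 0.15 (SE 0.031, adjusted p = 0.000421). Actb, cytoplasmic beta actin, had 147901, 145926 and 139460.2 in WT and 138646, 142144 and 138503 in cKO, which overlapped, with a log2 difference of -0.047 (95% interval -0.11 to 0.016, adjusted p = 0.245). The coding sequences of these genes are very alike, and how reads that match both were counted is not given in the sources used here. The ratio of Actb to Actg1 was 1.04, 1.03 and 1.03 in WT and 1.13, 1.09 and 1.11 in cKO, a log2 difference of 0.10 without overlap (exact permutation p = 0.1, adjusted 0.2).

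A CArG box lay 90 bases upstream of the Actg1 start and is shown in capitals because this element marks actin promoters.
Actg1 (chr11:120348541-120348620, minus strand): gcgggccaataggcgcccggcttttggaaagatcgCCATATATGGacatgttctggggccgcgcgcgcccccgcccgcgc
No Actb promoter was in the table.

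Among the proteins that switch Arp2/3 on, the changes went both ways. Was, which encodes the Wiskott-Aldrich syndrome protein of blood cells, had 10804, 10463 and 10487 normalized counts in WT and 9777, 9779 and 9481 in cKO and fell by 0.13 (adjusted p = 0.0028). Wipf1, which encodes the partner that protects WASP from degradation, fell by 0.095 (adjusted p = 0.0156), from 27216 to 28914 in WT to 25893 to 26294 in cKO. That call was lost with equal totals, without WT replicate 1 and without cKO replicate 1.

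Wasf2, the WAVE protein of leukocytes, was higher in every cKO sample, with 23466, 22474 and 22843 in WT and 23815, 24602 and 24637 in cKO and a log2 rise of 0.087 (adjusted p = 0.0262). This call was lost in 5 of the 14 alternatives, including the correction for GC content and length and the omission of WT replicate 2 or 3 or of cKO replicate 2 or 3. Wasl, the widely expressed N-WASP and the least abundant of the 43 genes, had 2233, 2179.5 and 2331 in WT and 2419.8, 2316 and 2403 in cKO, with a log2 difference of 0.082 (95% interval -0.016 to 0.18, adjusted p = 0.189). Hcls1, the cortactin relative of blood cells, differed by 0.052 (adjusted p = 0.237), by 0.019 without WT replicate 3 and by 0.028 without cKO replicate 2. With equal totals Wasl (adjusted p = 0.0328) and Hcls1 (adjusted p = 0.0106) passed the threshold as higher. The ratio of Wasl to Was was 0.207, 0.208 and 0.222 in WT and 0.248, 0.237 and 0.253 in cKO, a log2 difference of 0.21 without overlap (exact permutation p = 0.1, adjusted 0.2).

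Rhoa, Cdc42 and Rac2 had the largest falls after Ezr, and Rac1 did not pass the threshold. Rhoa, whose protein promotes contractility, lies at chr9:108306129-108337934 and had 27001, 26345 and 26359 normalized counts in WT and 21518, 21959 and 21331 in cKO. It fell by 0.30 on the log2 scale (SE 0.030, adjusted p = 8.89e-09), or by 18.7%. Cdc42 (chr4:137319696-137357720), the regulator of polarity and of WASP, had 44815, 43093 and 43257 in WT and 35694, 36874 and 35380.1 in cKO and fell by 0.28 (SE 0.030, adjusted p = 2.88e-08), or by 17.7%. The genotypes did not overlap for either gene.

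Rac2 (chr15:78559167-78572783), the Rac of blood cells, had 65094, 62500.5 and 61663 normalized counts in WT and 52565, 54366 and 50546 in cKO and fell by 0.27 (SE 0.032, adjusted p = 2.05e-07), or by 16.8%. Rhoa, Cdc42 and Rac2 kept their calls and directions in all 14 alternatives. Rac1, the widely expressed Rac, had 13915, 14494 and 16925 in WT and 14617, 14352 and 12747 in cKO. WT sample 3 stood above the other WT samples and cKO sample 3 below the other cKO samples, and the genotypes overlapped. The log2 difference of Rac1 was -0.12 (SE 0.052, 95% interval -0.22 to -0.011, adjusted p = 0.0771), and it passed the threshold as lower in 4 alternatives, namely without WT replicate 1, without WT replicate 2, without cKO replicate 1 and with the correction for GC content and length. It shrank to -0.033 without WT replicate 3 (adjusted p = 0.617) and to -0.056 without cKO replicate 3 (adjusted p = 0.428). About 51.4% of the annotated exon length of Rac1 is covered by exons of Daglb on the opposite strand, and whether reads were counted by strand is not given in the sources used here. The ratio of Rac1 to Rac2 overlapped between the genotypes (exact permutation p = 0.3, adjusted 0.48).

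**Figure D3:**
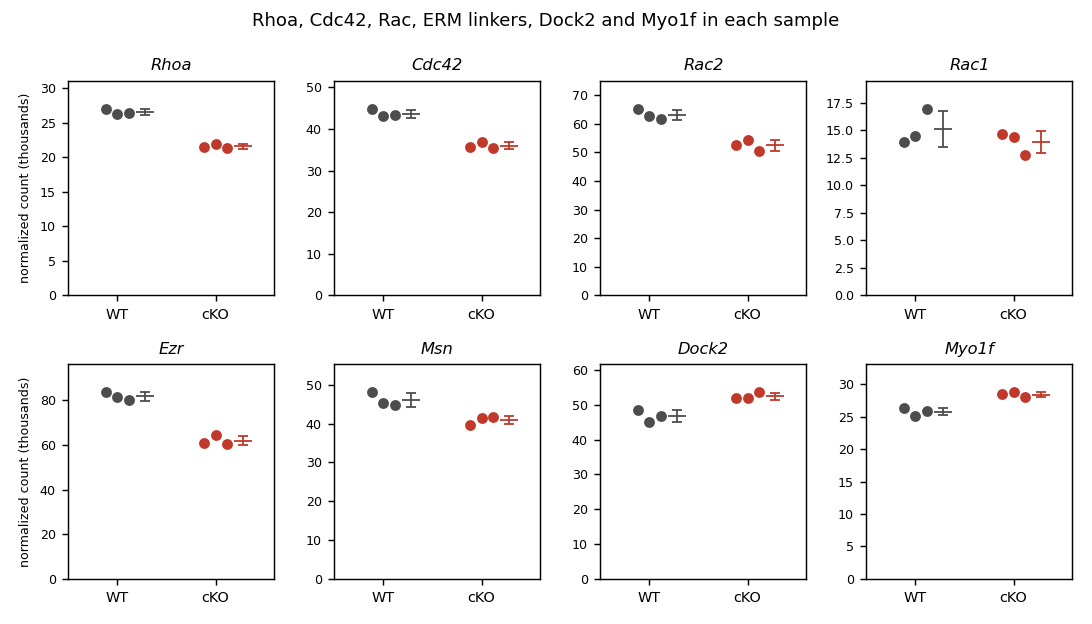
Normalized counts in units of 1000 (vertical axes, starting at 0) of Rhoa, Cdc42, Rac2 and Rac1, the linkers Ezr and Msn, the exchange factor Dock2 and the myosin Myo1f in each WT sample (grey) and cKO sample (red), with the mean and SD of 3 samples beside them. The cKO points lie below all WT points for Rhoa, Cdc42, Rac2, Ezr and Msn and above them for Dock2 and Myo1f, whereas Rac1 overlaps.

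Of the 4 genes for exchange factors, which load GTPases with GTP, and their adaptors, 1 rose and none passed the threshold as lower. Dock2, the Rac activator of leukocytes, was higher in every cKO sample, with 48647, 45150.0 and 46838 normalized counts in WT and 51945, 51888 and 53595 in cKO, a log2 rise of 0.16 (SE 0.031, adjusted p = 0.000144). Vav1, which is phosphorylated downstream of activating NK receptors, differed by -0.050 (95% interval -0.12 to 0.019, adjusted p = 0.263). Dock8, whose loss in people impairs NK cell cytotoxicity, differed by 0.025 (95% interval -0.043 to 0.093, adjusted p = 0.607). Elmo1, the adaptor that works with DOCK proteins, differed by -0.052 (adjusted p = 0.25) although all its cKO values, 8191 to 8559, were below its WT values, 8606 to 8753.

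Genes for the binding, capping and turnover of actin were lower in 5 of 7, and none was higher. Over all genes 18.8% were lower, and 30.9% among genes with a mean of at least 1000 normalized counts. With equal totals 3 of the 7 were lower and 0 higher, where 13.9% of all genes were lower. Capzb, the beta subunit of the protein that caps filament ends, had 33008, 33058 and 33191 normalized counts in WT and 29509, 29737 and 28232 in cKO and fell by 0.18 (adjusted p = 2.17e-05). Cfl1, the filament-severing cofilin, had 89840.2, 93618 and 88749.8 in WT and 82923, 85412 and 77689 in cKO and fell by 0.15 (adjusted p = 0.000989), and 16.5% of its exon length is shared with Snx32 on the opposite strand. Neither overlapped between the genotypes.

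Coro1a, a coronin required for leukocyte actin dynamics, had 51868, 51780.1 and 51464 normalized counts in WT and 47043, 48463 and 45450.4 in cKO and fell by 0.14 (adjusted p = 0.000573). Coro1b, its more widely expressed relative, fell by 0.13 (adjusted p = 0.00353), from 10649 to 11003 in WT to 9709.9 to 10141 in cKO, and lost its call with equal totals (adjusted p = 0.0535). About 13.5% of its exon length is shared with Ptprcap on the same strand. The log2 ratio of Coro1a to Coro1b differed by -0.012 between the genotypes, with overlap (exact permutation p = 0.5, adjusted 0.571).

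The monomer-binding genes were among the most abundant. Pfn1, the profilin that feeds actin monomers to growing ends, fell by 0.092 (adjusted p = 0.0382), with 110922, 100378 and 103481 normalized counts in WT and 98381, 101792 and 95043 in cKO. The groups overlapped for Pfn1, and the call was lost with equal totals, without WT replicate 1 (-0.051), without cKO replicate 1 and without cKO replicate 3. Tmsb4x, thymosin beta-4, had 201580.1, 215373 and 200244 in WT and 203098, 208550.0 and 195509 in cKO, with a log2 difference of -0.023 (95% interval -0.092 to 0.045, adjusted p = 0.631). Tmsb10, thymosin beta-10, differed by -0.057 (adjusted p = 0.165) and passed the threshold as lower only without cKO replicate 2. Their ratio overlapped between the genotypes (exact permutation p = 0.6, adjusted 0.6).

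Of the filament-elongating genes, Evl, which encodes an Ena/VASP protein, fell by 0.14 (adjusted p = 0.000758), with 18487, 19034 and 18503 normalized counts in WT and 16929.6, 17293 and 16675 in cKO. The formin gene Diaph1 had 23878, 22909.9 and 24098 in WT and 23035, 22214 and 22287 in cKO, with a log2 difference of -0.070 (95% interval -0.13 to -0.0060, adjusted p = 0.0814). The leukocyte formin gene Fmnl1 differed by -0.024 (95% interval -0.084 to 0.036, adjusted p = 0.566). For both formins the groups overlapped, and Diaph1 passed the threshold as lower in 3 alternatives.

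Of the 2 myosin genes, 1 rose. Myo1f, an unconventional myosin of immune cells, was higher in every cKO sample, with 26294, 25196 and 25874 normalized counts in WT and 28514, 28761 and 27987 in cKO, a log2 rise of 0.14 (SE 0.030, adjusted p = 0.000489). Myh9, the heavy chain of non-muscle myosin IIA, had 79167, 74405 and 76314 in WT and 77117, 77857 and 75399 in cKO. Its log2 difference was 0.0034 (95% interval -0.059 to 0.066, adjusted p = 0.946), and its sign turned in 3 alternatives.

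Ezr, which encodes ezrin, showed the largest change of the 43 genes. Ezrin belongs with moesin and radixin to the ERM proteins, which anchor membrane receptors such as CD44 and ICAM to cortical actin. The gene lies at chr17:6738041-6782784 and had 83569, 81657 and 79975 normalized counts in WT and 60849, 64297 and 60642 in cKO. All 3 cKO samples lay well under the lowest WT sample. It fell by 0.40 on the log2 scale (SE 0.031, 95% interval -0.46 to -0.34, adjusted p = 7.04e-11), or by 24.2%, and 2578 of all genes had a larger absolute change. The Ezr promoter is shown, up to 30 bases after its start, with its GGGCGG motifs, the core letters of Sp1 sites, in capitals as CCGCCC because they lie on the opposite strand.
Ezr (chr17:6782751-6783030, minus strand): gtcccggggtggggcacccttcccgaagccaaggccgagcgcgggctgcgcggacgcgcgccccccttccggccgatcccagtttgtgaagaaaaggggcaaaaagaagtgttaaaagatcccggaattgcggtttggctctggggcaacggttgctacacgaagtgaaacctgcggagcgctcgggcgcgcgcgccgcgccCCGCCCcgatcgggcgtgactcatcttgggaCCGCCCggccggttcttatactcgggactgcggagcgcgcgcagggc

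Msn, which encodes moesin, fell less, with 48035, 45289 and 44853 normalized counts in WT and 39760.3, 41489 and 41667 in cKO and a fall of 0.17 (SE 0.032, adjusted p = 0.000125). The ratio of Ezr to Msn was 1.74, 1.80 and 1.78 in WT and 1.53, 1.55 and 1.46 in cKO, a log2 difference of -0.23 without overlap (exact permutation p = 0.1, adjusted 0.2). Of the 8 pairs of related genes compared, 4 did not overlap between the genotypes, and none could pass an adjusted threshold with 3 samples in each group.

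**Figure D4:**
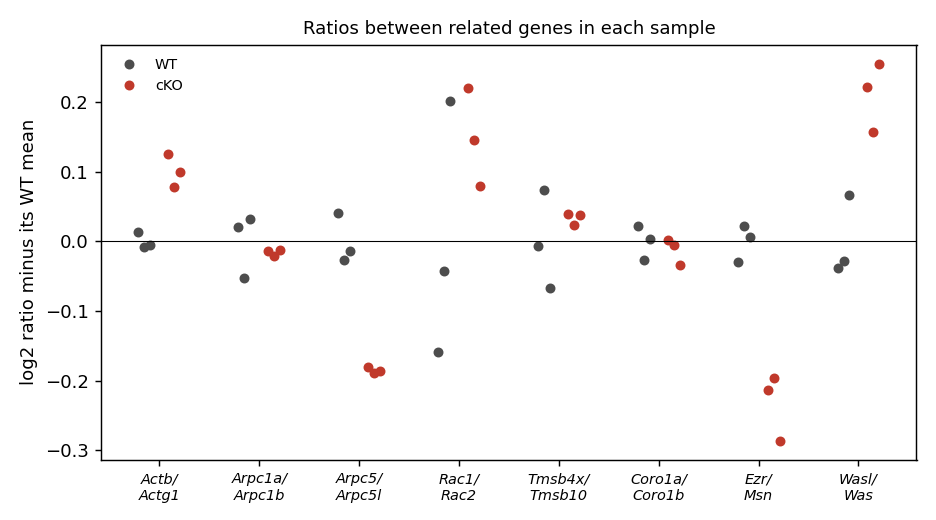
Log2 ratio of normalized counts of 8 pairs of related genes, minus the mean of the WT samples (vertical axis), in each WT sample (grey) and cKO sample (red). The genotypes separate for Actb/Actg1, Arpc5/Arpc5l, Ezr/Msn and Wasl/Was and overlap for the other pairs.

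Among the integrin linkers and crosslinkers, Fermt3, which encodes the kindlin of blood cells, had 18181, 18804 and 18754 normalized counts in WT and 16087, 16315 and 15941 in cKO and fell by 0.21 (SE 0.031, adjusted p = 6.05e-06). Tln1, the talin that works with kindlin to activate integrins, had 67990.1, 65236 and 66329.6 in WT and 64767, 65008 and 64105 in cKO. Its values did not overlap, yet its log2 difference of -0.041 did not pass the threshold (95% interval -0.10 to 0.018, adjusted p = 0.283).

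Flna, the filament crosslinker filamin A, rose by 0.081 (adjusted p = 0.0251), with 66459.8, 66165 and 66289 normalized counts in WT and 70871, 69727 and 69774 in cKO. That call was lost in 4 alternatives, without WT replicate 2, without WT replicate 3, without cKO replicate 1 and with the correction for GC content and length. Lcp1, the bundling protein L-plastin, differed by -0.067 (95% interval -0.13 to -0.0033, adjusted p = 0.0948). Lsp1, an actin-binding protein of leukocytes, differed by -0.062 (adjusted p = 0.151). Lcp1 passed the threshold as lower in 3 alternatives and Lsp1 in 1.

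Levels were compared between genes per kilobase of annotated exon. In WT, Tmsb4x stood highest of the 43 genes at 150060.1 ± 6109 normalized counts per kb (SD, n = 3), followed by Tmsb10 at 97196 ± 1722, Actb at 53912 ± 1648 and Actg1 at 52665 ± 1410. Arpc1b, at 8152 ± 334 per kb, and Arpc5, at 9232 ± 178, were well above their paralogues Arpc1a, at 1773 ± 21.3, and Arpc5l, at 889 ± 20.3. Wasl was the lowest at 365 ± 12.5. Exon lengths were those of all annotated isoforms together, so genes with long rare isoforms are set too low on this scale. The 4 genes with the largest falls, Ezr, Rac2, Cdc42 and Rhoa, ranked 7, 8, 11 and 35 by level in WT.

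**Figure D5:**
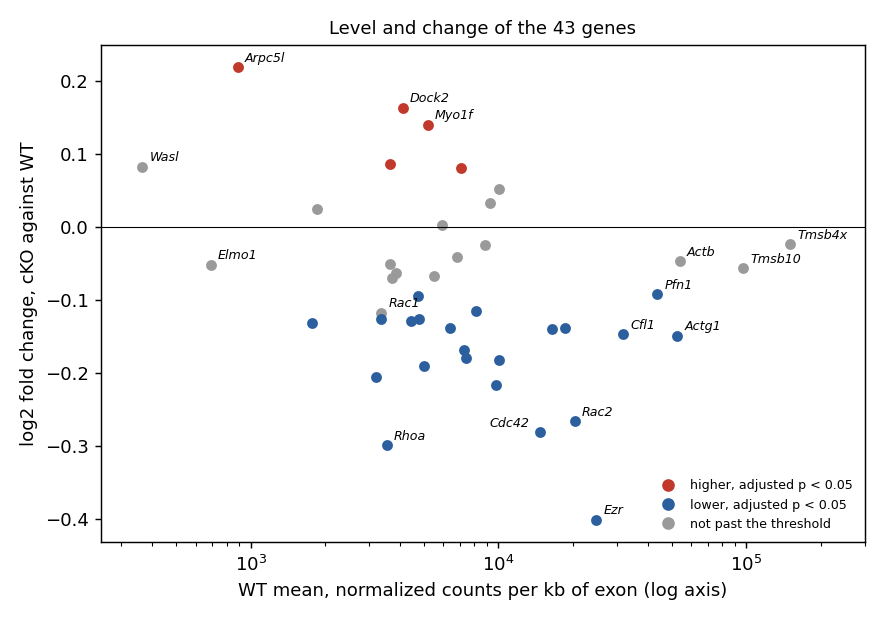
Log2 fold change in cKO against WT (vertical axis) and the WT mean in normalized counts per kb of exon (horizontal log axis) for each of the 43 genes, coloured as lower (blue), higher (red) or not past an adjusted p of 0.05 (grey). Tmsb4x, Tmsb10 and Actb at the far right lie near 0, while Ezr, Rac2, Cdc42 and Rhoa lie lowest.

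Other genes of the pathway, 141 from 7 lists, were counted in the same way. Of the 128 measured, 68 were called, 24 higher and 44 lower, with a median log2 fold change of -0.041. Beside these counts stand the shares over all genes, 36.6% called, 17.8% higher and 18.8% lower, and the lists were not tested against them. Among all genes with a mean of at least 1000 normalized counts the shares were larger, 55.2% called and 30.9% lower. With the test limited to such genes, 61 of these other genes were called, and how many of them reached that level is not given here. WAVE subunits and other nucleation factors were lower in 6 of 19 and higher in 1, or 36.8% called, close to the share over all genes, and myosins and light chains were lower in 5 of 11 and higher in 1. Exchange factors, GTPase-activating proteins and GDP-dissociation inhibitors were lower in 8 of 24 and higher in 6. Crosslinkers, tropomyosins and linkers were lower in 7 of 22 and higher in 3. Genes for turnover, capping and severing were higher in 8 of 23 and lower in 7, and formins and Ena/VASP proteins were higher in 3 of 9 and lower in 2.

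The largest falls among these genes, by the rule for named genes, were in Cdc42 effectors, a Rac and a WAVE subunit. Cdc42ep1, a Cdc42 effector, had 175, 129.7 and 147 normalized counts in WT and 41.7, 49.98 and 44.8 in cKO and fell by 1.70 on the log2 scale (SE 0.22, adjusted p = 8.22e-07). Rac3, the third Rac paralogue, had 977, 978 and 1027 in WT and 589.7, 518 and 598 in cKO and fell by 0.81 (SE 0.078, adjusted p = 5.2e-09). Abi3, a subunit of WAVE complexes, fell by 0.75 (adjusted p = 0.000198) and Cdc42ep4, another Cdc42 effector, by 0.60 (adjusted p = 0.000283). These genes were expressed at far lower counts than the 43 genes.

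The largest rises were in Tiam1, Fhod1, Capg and Limd1. Tiam1, a Rac exchange factor, had 121, 173 and 108 normalized counts in WT and 205, 177 and 217 in cKO, a log2 rise of 0.60 (SE 0.18, adjusted p = 0.0091). Fhod1, a formin, had 2220.5, 2122 and 2278 in WT and 3149.8, 3037 and 3199.8 in cKO, a rise of 0.50 (SE 0.046, adjusted p = 2.06e-09). Capg, a filament-capping protein of the gelsolin family, rose by 0.50 (adjusted p = 1.07e-05) and Limd1, a LIM-domain adaptor, by 0.42 (adjusted p = 1.26e-09).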

How the data were processed

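The data were mRNA-seq profiles of NK cells from the spleen, 3 for WT and 3 for cKO as the sample labels give them. The authors aligned reads to GRCm38 with HISAT2 2.0.5, counted them per gene with featureCounts 1.5.0-p3 and scaled them with DESeq2 1.16.1, per the submitters' processing notes, while the study's methods name other versions of HISAT2 and DESeq2. The values the authors deposited are a signal, the counts of a gene divided by the size factor of the sample. The deposited table also holds the authors' own comparison, with its mean, log2 fold change, standard error, test statistic, p-value and adjusted p-value, and none of these was used. The table lists 14490 genes, of which 19 have names turned into spreadsheet dates and 1 name is listed a second time. The values in each sample were whole multiples of a single step to within 0.01 of a read, which gave the number of reads on listed genes. Depth beyond the listed genes is not given in the sources used here.

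Values were taken as log2(value + 1), which draws low values together, and a filter asked for 1 normalized count or more in 3 samples, which all genes passed. The genotypes were compared with limma 3.58.1 in R 4.3.3, with the trend option and two-sided tests, Benjamini-Hochberg adjustment across the table and 95% intervals from moderated standard errors. The planned edgeR and DESeq2 alternatives were not run here. Of the steps, only the limma fit was tested on simulated data before use. Ratios of related genes were compared by exact permutation over all 20 assignments of the samples. Exon lengths, GC content and positions came from GENCODE M21 on GRCm38, in which 97.34% of names matched, and promoters from RefSeq on GRCm38.p6. Samples of the same genotype differed by 5.50 to 8.00 times the chi-square expected from sampling of reads, more than sampling of reads alone gives. Only the expected value is limited to counting error, and the observed one holds every difference between the samples.

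The 43 genes, the lists and the tests were chosen with earlier results of these data known. All 43 genes are described, and of the other actin genes the 4 largest rises and 4 largest falls among those called whose mean reached 1 CPM and whose genotypes did not overlap, with Mettl3 and Ncr1 as checks of the labels. The alternatives changed the pseudocount to 0.1, dropped the filter, raised it to 1 CPM in 3 samples or to a mean of 1000, or used equal totals, the replicate number as a block, the omission of each sample in turn, a correction for GC content and length with splines of 5 degrees of freedom, the study's fold rule and a 1.2-fold limit. Limma-voom on the recovered reads was added after the data were seen. The counts of 1 gene group and of 1 list of other actin genes are not reported here.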

Additional observations from a re-analysis of the deposited data

How the results depend on the processing

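Of the 27 called genes, 20 kept their call and direction in all 14 alternatives run for single genes, and the other 7 lost the call in at least 1, named above. Some of these alternatives could change little. The filter removed 0 genes, so dropping it repeated the main fit. The pseudocount of 0.1, the 1 CPM filter and the mean of 1000 could hardly alter fold changes of such abundant genes. Under each of these settings all 43 genes kept their result. None of the 27 turned direction. Of the 16 genes not called, 8 passed the threshold in at least 1 alternative. Under the replicate block 29 of the 43 genes were called, 24 of them lower, and the calls over all genes also increased, from 5307 to 5543. Whether the replicate numbers pair the samples could not be decided. Deviations of same-numbered samples correlated at -0.024, 0.12 and 0.065 over 11055 genes. Samples 2 of both genotypes correlated best with each other, as did samples 3, whereas samples 1 did not. The deviations were taken from means of 3 samples, so these correlations constrain one another. The count of genes that rose, 5 as reported, was 8 with equal totals and 3 with the correction for GC content and length, and ranged from 3 to 5 when 1 sample was left out, with 3 without WT replicate 2 and 3 without WT replicate 3. Leaving out 1 sample gave 24 to 28 called genes among the 43 and 4417 to 4922 over all genes. With equal totals 32.0% of the calls among the 43 genes were higher, against 18.5% as reported, and over all genes 63.4% against 48.5%. The rule of an unadjusted p below 0.05 with a log2 change beyond 1 left 0 of the 43 genes called (0 higher and 0 lower, against 27 by limma's adjusted p), 1 other actin gene and 254 of all genes. At least 1.2-fold left 4 of the 43 genes (4 lower and 0 higher), 17 other actin genes and 2608 of all genes. Directions turned in genes that were not called: with equal totals Actb (0.0026), Tmsb4x (0.026), Fmnl1 (0.026) and Tln1 (0.0082), with the correction for GC content and length Dock8 (-0.0037) and Myh9 (-0.027), without WT replicate 2 Tmsb4x (0.010) and Myh9 (-0.018), without cKO replicate 2 Myh9 (-0.0066), and without cKO replicate 3 Tmsb4x (0.0013). The log2 ratio of Arpc1a to Arpc1b ranged from -0.042 to 0.00021 when 1 sample was left out. The values of Tmsb4x ranged from -0.045 to 0.010 and those of Myh9 from -0.018 to 0.027 when 1 sample was left out. The cause of these changes was not tested. The planned edgeR and DESeq2 fits were not run. Limma-voom on recovered reads, added after the data were seen, called 27 of the 43 genes and 5246 of all genes. Exon sharing and unknown strand counting limit Rac1 most.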
